A study of Danio rerio with 16 samples.

Results

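In zebrafish larvae at 5 days post fertilization, 56 genes had levels in an unbroken order over 3 groups. The groups are ranked by presumed glucocorticoid receptor (GR) activity, which was not measured. The order ran from larvae that lack a working GR and received vehicle, through siblings that received vehicle, to siblings that received cortisol. The 4 libraries of each of these 3 groups did not overlap with those of the next group. Of 21686 genes that averaged 5 or more normalized counts over all 16 libraries, 19 rose along this order (0.0876% of the genes) and 37 fell (0.171%). The genes were chosen by their measured levels in these 12 libraries. Their order and their differences between the 3 groups are therefore descriptions, and no test of either is offered as support. The 4 libraries of larvae without a working GR that received cortisol took no part in the choice of the order. Another 3 genes were left out by their identifiers, of which 2 had such an order.

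The libraries come from whole larvae of crosses between carriers of GR369-. This allele puts a frameshift into the GR gene nr3c1 and was made by CRISPR-Cas9 in the AB strain. Larvae were sorted at 4 days by visual background adaptation (VBA), in which pigment cells adjust to the background and which needs the GR. VBA- larvae were taken as homozygous for GR369-, and VBA+ larvae as siblings of both other genotypes, wild type and heterozygous, among which heterozygotes are expected to be more frequent. Both classes grew from the first hours after fertilization in medium with 1 µM cortisol or with DMSO as vehicle, in a cycle of light and dark, and each of the 4 groups has 4 libraries of 8 pooled larvae. All 4 pools of a condition were drawn in turn from 1 dish before the next dish was opened, so dish and time of collection cannot be told apart from condition. In RNA from whole larvae, fewer cells of a type and less RNA in each cell cannot be told apart.

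The GR is a nuclear receptor that waits in the cytosol in a complex with HSP90 and its co-chaperones. Cortisol, the main glucocorticoid of fish and humans, releases it to the nucleus, where it activates genes at glucocorticoid response elements and represses others, in part by interfering with other transcription factors. It is known for raising the supply of glucose, restraining inflammation and, in fish, for controlling the dispersal of pigment. In larvae without cortisol treatment, GR activity comes from the hormone the larva makes itself. If GR activity rises along the 3 groups, the 19 rising genes are in the order of activated genes and the 37 falling genes in that of repressed genes. GR activity was not measured, and the authors propose that larvae given chronic cortisol develop resistance of the GR. Whether the GR acts at any of them directly was not measured.

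Levels are given as log2(normalized count + 0.1), the scale of the deposited values, and differences between groups are on that same log2 scale. Sequencing depth is unknown, because normalization gave every library the same sum of 14653434 normalized counts and the same 310 zeros. It also gave genes of 1 library shared steps, and in the 4 VBA+ vehicle libraries MT-ND4 had 4 equal values. As a check of the labels, FKBP5, a GR target and co-chaperone, had levels of 8.71, 6.0, 5.98 and 5.25 in VBA- vehicle libraries 1 to 4. It lay between 8.42 and 8.99 in VBA+ vehicle, between 8.61 and 9.47 in VBA+ cortisol, and at 8.95, 6.94, 6.66 and 3.34 in VBA- cortisol libraries 1 to 4. The libraries labelled VBA- with number 1 thus had FKBP5 levels within the range of VBA+ libraries. With cortisol in VBA+ larvae FKBP5 had a difference of 0.42 ± 0.19 (SE), with an adjusted p of 0.151 in limma. NR3C1, the mutated gene, stood at 9.0, 8.48, 9.33 and 8.42 in VBA- vehicle and from 9.18 to 9.52 in VBA+ vehicle. VBA- vehicle 3 was thus in the VBA+ vehicle range. VBA- cortisol 1, at 9.21, was below all VBA+ cortisol libraries, which lay from 9.39 to 9.59, though within the range of VBA+ vehicle. For this allele the paper reports less nr3c1 RNA in VBA- larvae, by qRT-PCR and in this experiment, probably from decay of the mutant RNA. It takes this as a sign that the sorting worked. The mean of NR3C1 was 8.81 in VBA- vehicle and 9.33 in VBA+ vehicle, but VBA- vehicle 3 lacked that lower level. The labels of all libraries are used as given, and whether any VBA- pool holds larvae of the other class was not tested. Without VBA- vehicle 1, 31 rising and 46 falling genes had the order. The VBA- cortisol libraries also split among themselves, 1 and 2 against 3 and 4, and results on them are given for each pair. Their deviations from the group mean, across genes averaging 75 or more counts, correlated with those of same-numbered libraries of other groups. For numbers 1 to 4 the correlations were 0.288, 0.657, 0.0782 and 0.67 with VBA- vehicle. With VBA+ cortisol they were -0.601, -0.59, -0.449 and -0.625.

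Among the rising genes the step from VBA- to VBA+ in vehicle had a median of 0.32, from 0.13 for the smallest to 1.29 for the largest, and the step from vehicle to cortisol in VBA+ had a median of 0.33, from 0.14 to 0.78. The median cortisol step of the rising genes was 0.50 in libraries 1 and 2 and 0.25 in libraries 3 and 4. For most of them the whole way from VBA- vehicle to VBA+ cortisol was under a doubling, with a median of 0.64. Both steps reached 0.5 in 2 rising genes, klhdc8a and HSP90AA1. The mean normalized count was at least 75 in 16 of the 19. The genotype step was the larger one in 7 of them, so neither step dominated the group.

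**Figure D1:**
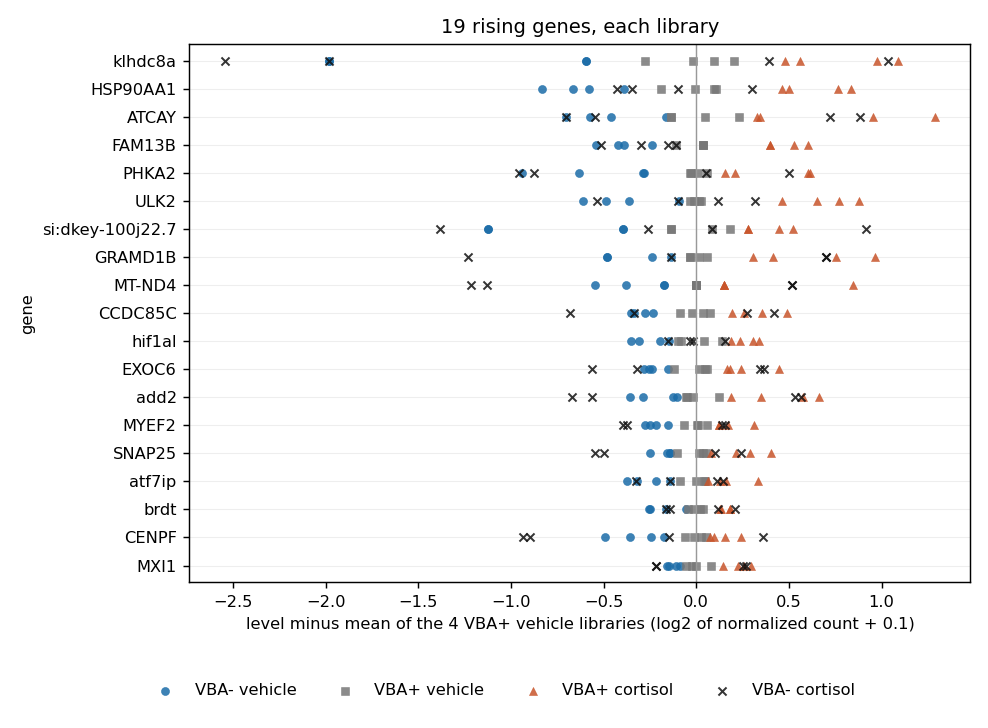
Level of each of the 19 rising genes in every library, as the difference from the mean of its 4 VBA+ vehicle libraries (x axis, log2), with 1 gene per line and a marker for each of the 4 groups. VBA- vehicle points lie left of 0 and VBA+ cortisol points right of 0 by the choice of genes, and the VBA- cortisol points spread over both sides.

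HSP90AA1 (ENSDARG00000024746) encodes a cytosolic HSP90, the chaperone that holds the GR ready to bind hormone. Its levels were 9.85, 9.94, 9.68 and 10.12 in VBA- vehicle libraries 1 to 4, 10.61, 10.62, 10.32 and 10.50 in VBA+ vehicle, and 11.35, 11.28, 11.01 and 10.98 in VBA+ cortisol. The 3 groups were about equally far apart, by 0.62 ± 0.11 (SE) for genotype and 0.64 ± 0.11 (SE) for cortisol. In VBA- cortisol libraries 1 to 4 it stood at 10.08, 10.16, 10.82 and 10.42, all 4 below the lowest VBA+ cortisol library. A gene is called here at an adjusted p of at most 0.05 in limma with a log2 difference of at least 0.5, provided that the SE is under 1 and the mean is 75 normalized counts or more. By those limits the cortisol effect in VBA+ larvae was called higher in 3.6% of all genes and in 3 of the 19 rising genes, HSP90AA1, ATCAY and ULK2. In vehicle, 0.0646% of all genes were called lower in VBA- and 0 of the 19 were. An unadjusted p under 0.05 was found there in 3032 of the 21686 genes, in either direction, and in 15 of the 19. These counts use the values that chose the genes, and nothing is read from them.

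The other measured copy of cytosolic HSP90 alpha, hsp90aa1.1, did not share the order. It was called lower in VBA- vehicle by limma, with a log2 difference of -0.84 ± 0.09 (SE) and an adjusted p of 0.0128, a call that held in 12 of 16 other settings. Cortisol in VBA+ larvae gave a difference of -0.14 ± 0.11 (SE), with an adjusted p of 0.357. The copies of HSP90 alpha share sequence, and reads that fit both make the split between them uncertain. Among the 15 tested genes of a list of steroid receptors and their partners, 4 were called higher and 1 lower with cortisol in VBA+ larvae, and 1 was called lower in VBA- vehicle. Among 56 heat shock and chaperone genes, 3 were called higher and 5 lower with cortisol, and 1 was called lower in VBA- vehicle. Of all genes, 3.6% were called higher and 4.63% lower with cortisol, and 0.0646% lower in VBA- vehicle. The calls higher on both lists include HSP90AA1, which was chosen on this contrast. The median difference of the 56 was -0.01 with cortisol in VBA+ larvae, with 27 above 0 and 29 below. For VBA- against VBA+ in vehicle it was -0.18, with 13 above 0 and 43 below. Most of the list, which includes HSP90AA1, thus shared its genotype direction, but the list did not share its cortisol direction.

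ULK2, a kinase that starts autophagy, had levels of 9.59, 9.20, 9.07 and 9.32 in VBA- vehicle, 9.71, 9.70, 9.65 and 9.67 in VBA+ vehicle, and 10.14, 10.33, 10.45 and 10.56 in VBA+ cortisol. The 4 VBA+ vehicle libraries were within 0.1 of each other, and the step to cortisol, 0.69, was larger than that to VBA-, 0.39. In VBA- cortisol libraries 1 to 4 ULK2 had levels of 9.99, 9.14, 9.80 and 9.58, below all VBA+ cortisol libraries. PHKA2, a regulatory subunit of phosphorylase kinase, which turns on glycogen breakdown, had levels of 8.02, 7.71, 8.37 and 8.38 in VBA- vehicle, 8.62, 8.63, 8.67 and 8.71 in VBA+ vehicle, and 9.26, 9.27, 8.86 and 8.81 in VBA+ cortisol. Here the genotype step of 0.54 was the larger, and the cortisol step was 0.40. Its VBA- cortisol libraries stood at 7.78, 7.70, 9.16 and 8.71, so the first pair lay with VBA- vehicle and the second pair with the VBA+ groups. The other tested genes of the ULK and PHKA families, 2 in each, were not in the order. hif1al, a relative of the hypoxia-inducible factor HIF1 alpha, lay from 10.34 to 10.55 in VBA- vehicle, from 10.59 to 10.83 in VBA+ vehicle and from 10.88 to 11.03 in VBA+ cortisol, and its VBA- cortisol libraries lay from 10.54 to 10.85.

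MT-ND4, a subunit of respiratory complex I that the mitochondrial genome encodes, was the rising gene with the most shared steps. It stood at 14.52, 14.52, 14.32 and 14.15 in VBA- vehicle, at 14.69 in all 4 VBA+ vehicle libraries, and at 15.54, 14.84, 14.84 and 14.84 in VBA+ cortisol. Of the 13 tested protein genes of the mitochondrial genome it was the only one in the order. MT-ND5, another complex I subunit, was called higher with cortisol in VBA+ larvae, by 1.01 ± 0.28 (SE) with an adjusted p of 0.0391 in limma, a call that held in 5 of 15 other settings. Its genotype difference in vehicle was 0.11 ± 0.23 (SE). In VBA- cortisol libraries 1 to 4 MT-ND4 had levels of 13.56, 13.48, 15.21 and 15.21, the first pair below and the second pair above every vehicle library. Of 57 listed genes of mitochondrial respiration encoded in the nucleus, 23 were called lower and 0 higher with cortisol in VBA+ larvae, beside 4.63% called lower among all genes, and 0 were called with the replicate block. Without VBA+ cortisol 1 it was 11, without VBA+ cortisol 2 13 and without VBA+ vehicle 1 15. In VBA- vehicle 1 of the 57 was called lower and 50 had a difference below 0, with a median of -0.19.

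ATCAY encodes caytaxin, a protein of neurons that is mutated in a human ataxia. Its levels were 5.46, 5.70, 5.59 and 6.0 in VBA- vehicle, 6.21, 6.39, 6.02 and 6.02 in VBA+ vehicle, and 7.45, 7.12, 6.49 and 6.51 in VBA+ cortisol. The highest VBA- vehicle library and the lowest VBA+ vehicle library lay close together, and the 2 higher VBA+ cortisol libraries were numbers 1 and 2. In VBA- cortisol it stood at 5.62, 5.46, 7.05 and 6.88. SNAP25 (ENSDARG00000020609), a membrane fusion protein of nerve terminals, had levels of 11.17, 11.17, 11.06 and 11.15 in VBA- vehicle, 11.21, 11.37, 11.33 and 11.35 in VBA+ vehicle, and 11.72, 11.53, 11.61 and 11.39 in VBA+ cortisol. Its steps were small, and the gap between neighbouring groups was a few hundredths. The second SNAP25 gene (ENSDARG00000058117) had a cortisol difference of 0.01 with an adjusted p of 0.97 in limma, and a genotype difference of -0.52 in vehicle that was not called.

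Of 62 tested genes on a list for the synapse and neuronal activity, 9 were called higher and 0 lower with cortisol in VBA+ larvae, with a median difference of 0.49, against 3.6% called higher among all genes. With the replicate block 0 of them were called, and leaving out 1 library gave 0 (without VBA+ vehicle 1 or VBA+ cortisol 1 or 2) to 28 (without VBA+ cortisol 4). In VBA- vehicle 0 were called, and 50 of the 62 had a difference below 0, with a median of -0.16. The summed level of the list without its member stood at 14.44, 14.20, 14.30 and 14.70 in VBA- vehicle libraries 1 to 4, at 14.51, 14.85, 14.53 and 14.61 in VBA+ vehicle, and at 15.34, 15.31, 14.96 and 14.59 in VBA+ cortisol. These sums overlapped between the groups, unlike the members. In VBA- cortisol they were 13.82, 13.61, 15.29 and 14.98, the same split of pairs as in ATCAY, SNAP25 and MT-ND4. The 7 neuron markers other than the member SNAP25 (ENSDARG00000020609), none of them at 0, summed to 12.44 to 12.87, 12.83 to 13.07 and 12.87 to 13.60 in the 3 ordered groups. In VBA- cortisol libraries 1 to 4 these neuron markers summed to 12.09, 11.80, 13.49 and 13.16. The part of neuronal RNA in the order of the 19 genes was not tested.

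klhdc8a, which encodes a kelch-domain protein, had the largest genotype step among the rising genes and low counts. Its levels were 1.63, 1.63, 3.02 and 3.02 in VBA- vehicle, 3.60, 3.34, 3.82 and 3.71 in VBA+ vehicle, and 4.59, 4.71, 4.18 and 4.10 in VBA+ cortisol, with a mean normalized count of 12.6. At such counts the values of neighbouring steps lie far apart on the log2 scale. FAM13B had a far higher count and a steady order, with 11.95, 11.80, 12.10 and 11.91 in VBA- vehicle, 12.23, 12.37, 12.37 and 12.37 in VBA+ vehicle, and 12.73, 12.87, 12.94 and 12.73 in VBA+ cortisol. Its VBA- cortisol levels of 12.04, 11.82, 12.23 and 12.18 lay within or just above the range of VBA- vehicle. GRAMD1B, which moves cholesterol from the plasma membrane to the endoplasmic reticulum, had levels from 4.47 to 4.81, from 4.91 to 5.00 and from 5.25 to 5.91 in the 3 ordered groups. In VBA- cortisol it stood at 4.81, 3.71, 5.65 and 5.65.

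CCDC85C, a protein of cell junctions in the mouse brain, lay from 6.54 to 6.66 in VBA- vehicle, from 6.81 to 6.97 in VBA+ vehicle and from 7.09 to 7.38 in VBA+ cortisol. EXOC6, part of the exocyst that tethers vesicles to the plasma membrane, lay from 7.30 to 7.44, from 7.47 to 7.64 and from 7.76 to 8.03. si:dkey-100j22.7, a gene known by its clone name, lay from 2.61 to 3.34, from 3.60 to 3.92 and from 4.01 to 4.26. In each of these the VBA- cortisol libraries 3 and 4 stood above libraries 1 and 2. The remaining 6 rising genes had a smaller step of 0.13 to 0.22 and a larger step of 0.18 to 0.44. They are add2 (an adducin of the membrane skeleton), MYEF2 (a repressor of a myelin gene in mouse), atf7ip (a partner of a histone methyltransferase), brdt (a bromodomain protein), CENPF (a protein of the kinetochore) and MXI1 (an opponent of MYC).

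**Figure D2:**
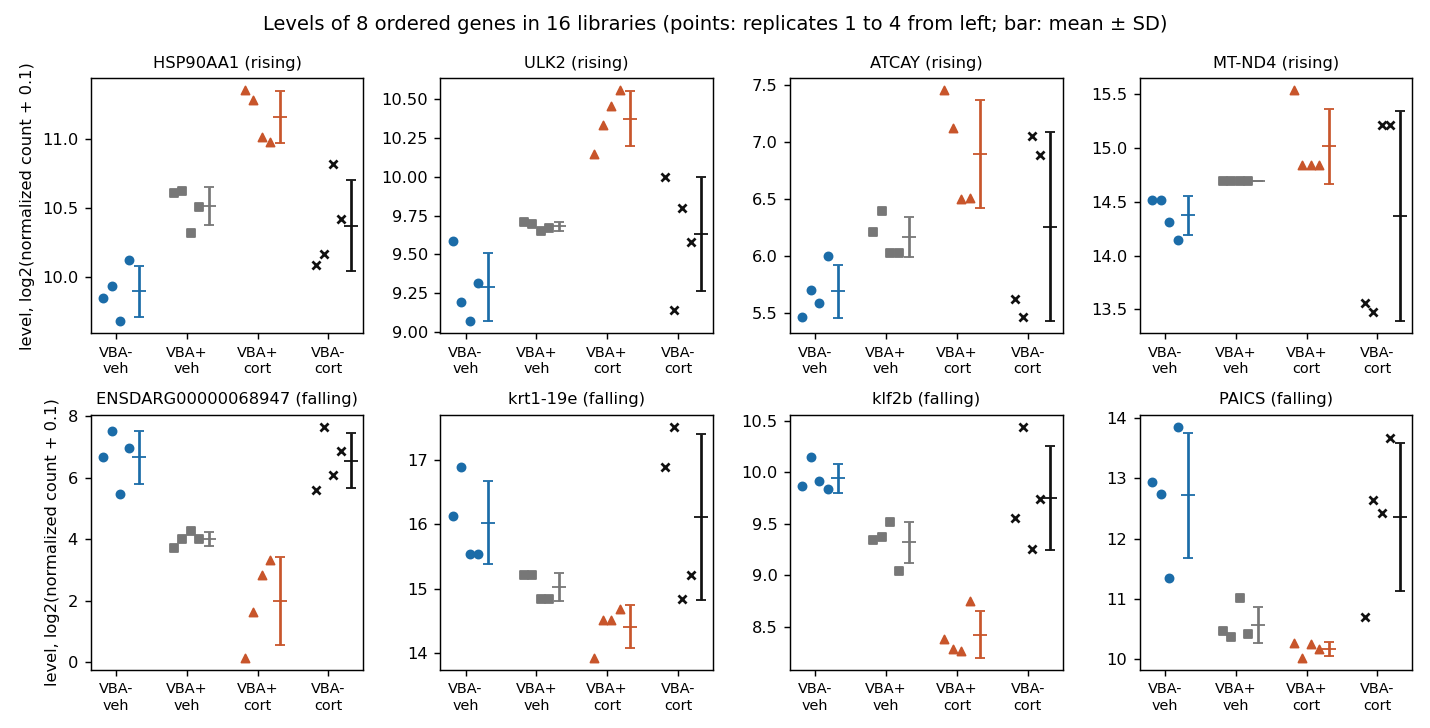
Level of 8 genes in each library (y axis, log2(normalized count + 0.1)) for the 4 groups, with points for libraries 1 to 4 from left to right and bars for the mean ± SD (n = 4). In HSP90AA1 and ULK2 the VBA- cortisol libraries stay below those of VBA+ cortisol, while ATCAY and MT-ND4 have libraries 3 and 4 far above 1 and 2, and among VBA- cortisol libraries number 2 is the highest in ENSDARG00000068947, krt1-19e and klf2b and number 4 in PAICS.

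Among the falling genes the genotype step, VBA+ minus VBA- in vehicle, had a median of -0.50 and reached -2.66, and the cortisol step had a median of -0.43 and reached -2.01. The median cortisol step was -0.60 in libraries 1 and 2 and -0.31 in libraries 3 and 4. The whole way had a median of -0.88. Both steps reached a size of 0.5 in 13 of the 37, and the genotype step was the larger in 18. Mean normalized counts were at least 75 in 33 of them. The background of calls was 4.63% of all genes for lower with cortisol in VBA+ larvae, against 12 of the 37, and 0.171% for higher in VBA- vehicle, against 1 of the 37, cd9b. As with the rising genes, the rule used both contrasts and nothing is read from these counts.

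**Figure D3:**
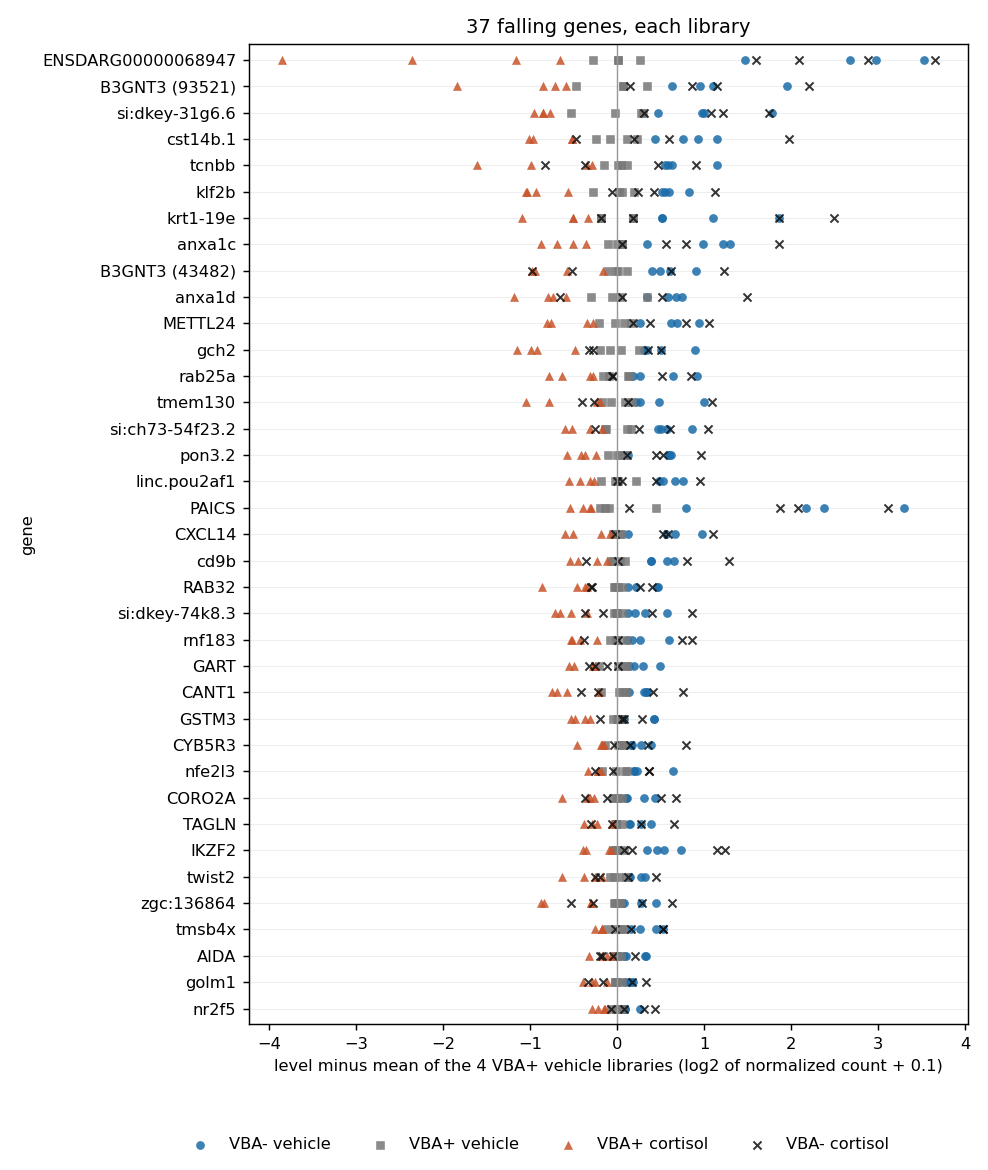
Level of each of the 37 falling genes in every library, as the difference from the mean of its 4 VBA+ vehicle libraries (x axis, log2), with 1 gene per line and a marker for each of the 4 groups. VBA- vehicle points lie right of 0 and VBA+ cortisol points left of 0 by the choice of genes, and most VBA- cortisol libraries 1 and 2 lie right of 0.

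Several falling genes are known from the epidermis. krt1-19e, a type I keratin, had levels of 16.13, 16.89, 15.54 and 15.54 in VBA- vehicle, 15.21, 15.21, 14.84 and 14.84 in VBA+ vehicle, and 13.93, 14.52, 14.52 and 14.69 in VBA+ cortisol. The genotype step was the larger, 1.00 against 0.61 for cortisol. In VBA- cortisol it stood at 16.89, 17.51, 14.84 and 15.21, and 17.51 is the highest value that a gene can take in these libraries. krt1-19d, its relative, had a genotype difference of 0.69 in vehicle that was not called and a cortisol difference of 0.12 with an adjusted p of 0.504. klf2b, a Krüppel-like transcription factor of the epidermis in zebrafish, had levels of 9.87, 10.14, 9.92 and 9.83 in VBA- vehicle, 9.34, 9.38, 9.52 and 9.04 in VBA+ vehicle, and 8.38, 8.28, 8.27 and 8.75 in VBA+ cortisol. Its VBA- cortisol levels were 9.55, 10.44, 9.26 and 9.74, all above the VBA+ cortisol libraries.

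The copy klf2a took the opposite direction with cortisol. Its levels were 8.75, 9.26, 8.23 and 8.29 in VBA+ vehicle libraries 1 to 4 and 9.88, 10.01, 10.42 and 10.58 in VBA+ cortisol, a difference of 1.59 ± 0.23 (SE) that limma called higher with an adjusted p of 0.00867. The call held in 13 of 15 other settings and was lost with the replicate block (adjusted p 0.0773) and in 1 fit of all 16 libraries (adjusted p 0.116). In VBA- vehicle klf2a was at 8.86, 8.32, 8.20 and 8.55, in the range of VBA+ vehicle, and in VBA- cortisol at 10.66, 9.99, 8.75 and 8.64. The pair of copies thus had cortisol differences of opposite sign in the same VBA+ libraries, and whether those differences differ from each other was not tested.

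Annexin A1 binds membranes when calcium rises, and in mammals it is known as a mediator of the action of glucocorticoids against inflammation. Of 4 tested annexin A1 genes, 2 were in the falling order. anxa1c had levels of 11.28, 11.58, 10.64 and 11.50 in VBA- vehicle, 10.35, 10.34, 10.29 and 10.18 in VBA+ vehicle, and 9.60, 9.42, 9.78 and 9.94 in VBA+ cortisol. anxa1d had levels of 9.27, 9.34, 8.94 and 9.18, then 8.93, 8.62, 8.30 and 8.53, then 7.41, 7.80, 7.86 and 8.00 in the same order. The steps were 0.96 for genotype and 0.61 for cortisol in anxa1c, and 0.59 and 0.83 in anxa1d. In VBA- cortisol libraries 1 to 4 anxa1c stood at 10.85, 12.15, 10.34 and 11.09, and anxa1d at 9.10, 10.08, 7.94 and 8.64. Both had the highest of all 16 libraries in VBA- cortisol 2.

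The other 2 annexin A1 genes had differences of the same signs without meeting the order. ANXA1 (ENSDARG00000026726) was called lower with cortisol in VBA+ larvae, by 0.73 ± 0.19 (SE) with an adjusted p of 0.0342 in limma, a call that held in 7 of 15 other settings, and its genotype difference of 0.59 was not called. anxa1b had differences of 1.05 for genotype and -0.45 for cortisol, neither of them called. anxa1c and anxa1d follow each other in the gene order of RefSeq, with 0 genes between them. Near-identical stretches could share reads between the copies, and this makes the values of single copies uncertain. Another pair of members lay close together, FAM13B and CXCL14 with 1 gene between them, and these 2 go in opposite directions. Places in that gene order were found for 42 of the 56 genes.

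cd9b encodes a tetraspanin, a membrane protein that organizes others at the cell surface. Its levels were 10.15, 10.42, 10.33 and 10.16 in VBA- vehicle, 9.86, 9.79, 9.72 and 9.70 in VBA+ vehicle, and 9.31, 9.22, 9.53 and 9.64 in VBA+ cortisol. VBA- cortisol split again, with 10.57 and 11.05 in libraries 1 and 2 and 9.40 and 9.77 in libraries 3 and 4. CXCL14, a chemokine made by epithelia, ran from a range of 9.43 to 10.29 through 9.26 to 9.35 to 8.71 to 9.23, and the 4 VBA+ vehicle libraries were within 0.1 of each other. Of 52 immune and inflammatory genes on a list, 5 were called higher and 1 lower with cortisol in VBA+ larvae, with a median difference of 0.00, and 0 were called in VBA- vehicle. Of all genes, 3.6% were called higher and 4.63% lower with cortisol.

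Of 70 tested genes on a list for the epidermis, 4 are falling members (klf2b, anxa1c, anxa1d and cd9b). With cortisol in VBA+ larvae 13 of the 70 were called lower and 0 higher, with a median difference of -0.24, beside 4.63% called lower among all genes. In VBA- vehicle 5 were called higher and 0 lower, with a median of 0.32, beside 0.171% called higher among all genes. The counts on this list include its members, which were chosen on both contrasts. With the replicate block 0 were called lower with cortisol and 11 higher in VBA- vehicle. Leaving out 1 library gave 4 (without VBA+ cortisol 2 or VBA+ vehicle 1) to 20 (without VBA+ cortisol 4) lower with cortisol, and 0 higher in VBA- vehicle without VBA- vehicle 2 or any of VBA+ vehicle 2, 3 and 4. Without the 4 members, the summed level of the list was 19.47, 19.64, 19.29 and 19.48 in VBA- vehicle libraries 1 to 4, 19.31, 19.24, 19.23 and 19.19 in VBA+ vehicle, and 18.74, 19.06, 19.19 and 19.22 in VBA+ cortisol. The sums went the way of the falling genes in their means, but VBA- vehicle 3 lay below VBA+ vehicle 1, and VBA+ cortisol 4 lay above VBA+ vehicle 4. In VBA- cortisol they were 19.44, 19.80, 19.14 and 19.28. The 7 skin markers, none of them members and none at 0, summed to 18.51 to 18.61 in VBA- vehicle, 18.48 to 18.58 in VBA+ vehicle, 18.07 to 18.49 in VBA+ cortisol and 18.50 to 18.61 in VBA- cortisol. The part of the amount of epidermal RNA in the order of the 37 genes was not tested.

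**Figure D4:**
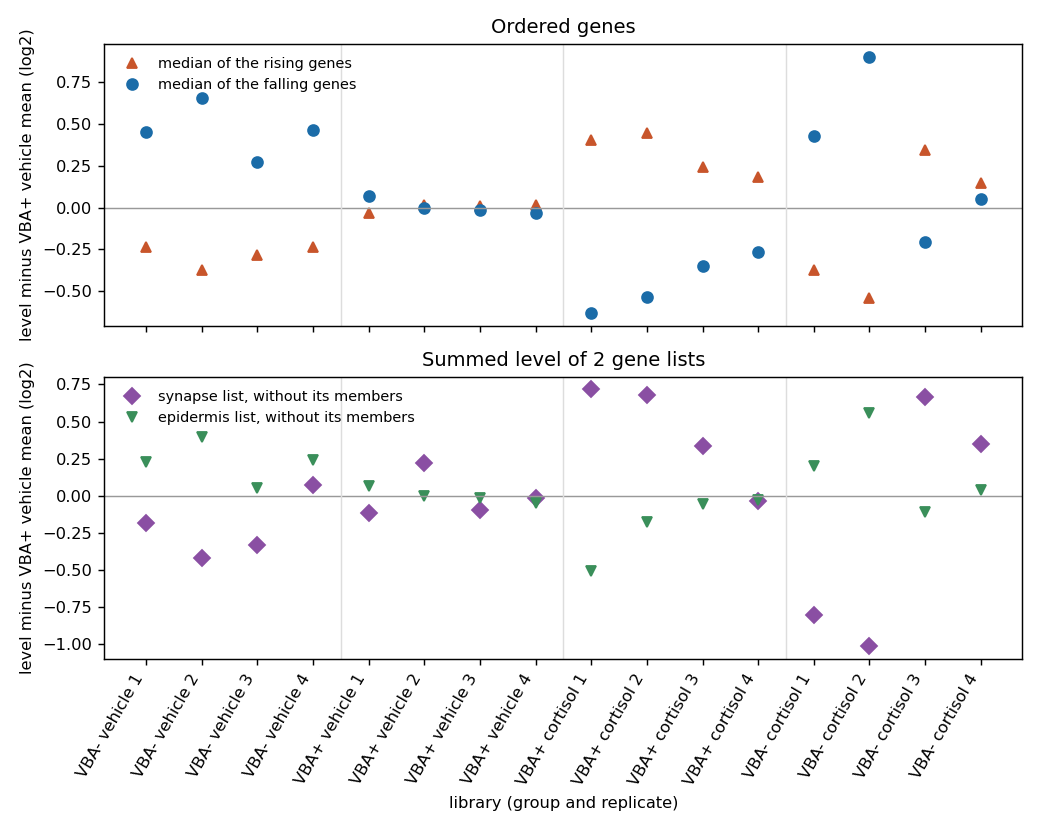
Median over the 19 rising and over the 37 falling genes in each library (above) and summed level of the synapse and epidermis lists without their members (below), all as log2 differences from the mean of the 4 VBA+ vehicle libraries. In VBA- cortisol the rising median was -0.37, -0.54, 0.34 and 0.15 in libraries 1 to 4 and the falling median was 0.43, 0.90, -0.20 and 0.05, and the 2 list sums split the same way.

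The falling gene with the widest span was ENSDARG00000068947, which has only a clone name. Its levels were 6.67, 7.52, 5.46 and 6.97 in VBA- vehicle, 3.71, 4.01, 4.26 and 4.01 in VBA+ vehicle, and 0.14, 1.63, 2.83 and 3.34 in VBA+ cortisol. The lowest of these, 0.14, stands for a single normalized count. In VBA- cortisol the gene stood at 5.59, 7.65, 6.09 and 6.87, the same range as in VBA- vehicle and above all 8 VBA+ libraries. Its mean normalized count of 60.9 is under the 75 needed for a call. si:dkey-31g6.6, another gene with a clone name, had levels of 8.28, 8.25, 7.74 and 9.06, then 7.55, 6.74, 7.57 and 7.25, then 6.32, 6.51, 6.43 and 6.43 in the 3 ordered groups. Its VBA- cortisol levels of 7.59, 8.35, 8.49 and 9.02 were also all above the 8 VBA+ libraries. METTL24, a methyltransferase-like gene, and pon3.2, of the paraoxonases, were the only other falling genes with all 4 VBA- cortisol libraries above the 8 VBA+ libraries.

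B3GNT3 is an enzyme that extends sugar chains with N-acetylglucosamine, and 2 of 3 tested genes of that symbol fell along the order. ENSDARG00000093521 had levels of 6.29, 7.13, 5.81 and 6.13 in VBA- vehicle, 5.25, 5.53, 5.25 and 4.71 in VBA+ vehicle, and 3.34, 4.33, 4.47 and 4.59 in VBA+ cortisol. ENSDARG00000043482 lay from 7.59 to 8.10, from 7.09 to 7.30 and from 6.21 to 7.02. The former kept all 4 VBA- cortisol libraries above VBA+ cortisol, at 6.32, 7.38, 5.33 and 6.05. The latter did not, at 7.81, 8.42, 6.21 and 6.67. The third gene, ENSDARG00000058100, had differences of 0.19 for genotype and 0.20 for cortisol, the latter with an adjusted p of 0.491 in limma. Sequence shared by these genes could divide reads between them.

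cst14b.1 belongs to the cystatins, which inhibit cysteine proteases, and had levels of 7.26, 7.48, 6.77 and 7.09 in VBA- vehicle, 6.44, 6.56, 6.25 and 6.09 in VBA+ vehicle, and 5.36, 5.81, 5.33 and 5.81 in VBA+ cortisol. It was the only one of 4 tested cystatin 14 genes in the order, and cst14a.2 was called lower with cortisol in VBA+ larvae, by 0.64. tcnbb is of the transcobalamins, which carry vitamin B12, and had levels of 11.75, 12.31, 11.80 and 11.72, then 11.28, 11.01, 11.17 and 11.21, then 9.55, 10.17, 10.88 and 10.82. VBA+ cortisol libraries 1 and 2 lay furthest from vehicle. VBA- cortisol had 11.63 and 12.07 in libraries 1 and 2 and 10.34 and 10.80 in libraries 3 and 4. METTL24 lay from 5.93 to 6.62, from 5.46 to 5.84 and from 4.86 to 5.40 in the 3 ordered groups.

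PAICS, GART and gch2 are on a list of genes that make purines and the pteridines of yellow pigment cells, the xanthophores, which start from the purine GTP. PAICS, an enzyme of purine synthesis, had levels of 12.94, 12.73, 11.35 and 13.86 in VBA- vehicle, 10.46, 10.36, 11.01 and 10.42 in VBA+ vehicle, and 10.26, 10.02, 10.25 and 10.16 in VBA+ cortisol. The genotype step of 2.16 was several times the cortisol step of 0.39, and the VBA- vehicle libraries were spread widely. In VBA- cortisol it stood at 10.70, 12.64, 12.43 and 13.67. GART, which catalyses other steps of the same pathway, had levels of 7.62, 7.47, 7.52 and 7.81, then 7.41, 7.12, 7.34 and 7.44, then 6.83, 6.77, 7.05 and 7.07. Its VBA- cortisol levels of 7.33, 7.0, 7.07 and 7.21 all lay below those of VBA- vehicle, and it was the only falling gene with that.

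gch2 encodes a GTP cyclohydrolase, the first enzyme of pteridine synthesis in xanthophores. Its levels were 9.77, 10.37, 9.81 and 9.97 in VBA- vehicle, 9.72, 9.27, 9.38 and 9.51 in VBA+ vehicle, and 8.54, 8.31, 8.48 and 8.98 in VBA+ cortisol. The gap between VBA- and VBA+ vehicle was 0.06, and all 4 VBA- cortisol libraries, at 9.83, 9.97, 9.20 and 9.14, lay above those of VBA+ cortisol. Of 47 tested genes on a list for purine synthesis and pteridine pigment, 4 were called higher and 6 lower with cortisol in VBA+ larvae, and 1 was called higher in VBA- vehicle. Of all genes, 3.6% were called higher and 4.63% lower with cortisol, and 0.171% higher in VBA- vehicle. The calls lower on this list include gch2, which was chosen on this contrast. The list thus had calls in both directions. XDH, xanthine dehydrogenase, which makes uric acid, was called higher with cortisol in VBA+ larvae, by 1.29 ± 0.21 (SE) with an adjusted p of 0.0111, while ADSL of purine synthesis was called lower by 0.55. Of 7 xanthophore markers, none at 0, 3 were called higher and 2 lower with cortisol, beside the same 3.6% and 4.63% of all genes. The 2 called lower again include gch2, which was chosen on this contrast. csf1ra, a receptor that xanthophores need, was among those higher, by 0.69, a call that held in 8 of 15 other settings. Since pigment cells of VBA- larvae do not adapt, and the larvae were sorted on that, a part of sorting in these genes cannot be told apart from genotype.

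The remaining 21 falling genes had steps from -0.13 to -0.61 for genotype and from -0.17 to -0.58 for cortisol. RAB32 (traffic to pigment granules), CANT1 (a nucleotidase), si:dkey-74k8.3 and zgc:136864 were called lower with cortisol in VBA+ larvae. Several others act on the actin skeleton or membrane traffic, namely TAGLN (transgelin), tmsb4x (a thymosin that holds actin monomers), CORO2A (a coronin), rab25a (recycling in epithelia) and golm1 (a Golgi membrane protein). twist2, IKZF2, nfe2l3 and nr2f5 are transcription factors. CYB5R3 and GSTM3 are enzymes of redox reactions and detoxification, rnf183 is a ubiquitin ligase, AIDA is a binding partner of axin, and linc.pou2af1, si:ch73-54f23.2 and tmem130 complete the set with pon3.2.

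**Figure D5:**
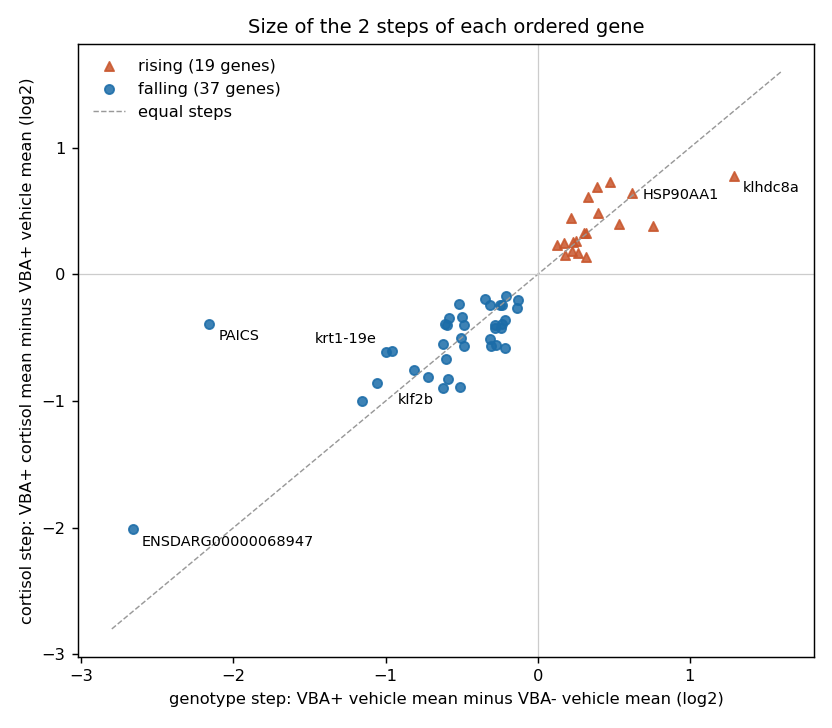
Genotype step (x axis, VBA+ minus VBA- in vehicle) against cortisol step (y axis, cortisol minus vehicle in VBA+), both as log2 differences of group means, for the 19 rising and 37 falling genes, with a dashed line where the steps are equal. Rising genes fill the upper right and falling genes the lower left by the choice of genes, and ENSDARG00000068947 and PAICS lie furthest out.

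The rule turns on narrow gaps in some genes. The narrowest gap between neighbouring groups was 0.01 among the rising genes, in brdt, and 0.003 among the falling genes, in anxa1d and rnf183. Just outside lay genes with a gap of exactly 0, because libraries of neighbouring groups shared a value. PDK2, adra1ab, H3-3B, kctd17 and SLC38A3 are examples in the rising direction, not a full list. COG2, MFSD6L, TNNT3, cyt1l and RPS24 are examples in the falling direction. Counting ties as order gave 42 rising and 75 falling genes. The VBA+ vehicle group, which has to fit between the others, was tight in the chosen genes, with a median SD of 0.07 in the rising and 0.10 in the falling genes, beside 0.21 over all tested genes. In VBA- cortisol, which the order did not use, the median SD was 0.47 and 0.50, beside 0.40 over all tested genes. Members had higher counts than most genes. Over genes with a mean of at least 75, the medians were 0.07 and 0.09 beside 0.15 in VBA+ vehicle. In VBA- cortisol they were 0.39 and 0.49 beside 0.31.

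The order did not use the VBA- cortisol libraries, but it used the VBA+ vehicle libraries they are set against here. The rule put VBA+ vehicle between VBA- vehicle and VBA+ cortisol in every member. Counts against the VBA+ vehicle mean, here and below, are therefore not independent of the choice of genes. The shares of all genes beside them are of genes not so chosen. The comparison asks where larvae without a working GR stand when they are given cortisol. The VBA- cortisol mean was on the VBA- side of the VBA+ vehicle mean in 15 of 19 rising genes, where 53.7% of all genes were below, and in 34 of 37 falling genes, where 46.2% of all genes were above. The exceptions were ATCAY, GRAMD1B, brdt and MXI1 among the rising genes and GART, AIDA and golm1 among the falling. With cortisol in VBA- larvae, libraries 1 and 2 had 18 rising and 35 falling genes on that side, and libraries 3 and 4 had 2 and 15. Shares of all genes were not counted for the pairs. The counts thus rest on libraries 1 and 2. Without library 2, they were 10 and 22.

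Library by library, VBA- cortisol 2 was below the VBA+ vehicle mean in all 19 rising genes and library 1 in 17, while library 3 was below in 2 and library 4 in 5. Of all 21686 genes, 10500, 10569, 10955 and 10697 were below that mean in libraries 1 to 4. In the falling genes library 1 was above that mean in 36 and library 2 in 35 of 37, and library 4 was above in 21 and library 3 in 9. Of all genes, 11158, 11094, 10711 and 10965 were above it in libraries 1 to 4. Libraries 1 and 2 were both below 3 and 4 in 17 of 19 rising genes (34.3% of all genes), and both above them in 28 of 37 falling genes (36.8% of all genes). NR3C1 had 9.21, 8.69, 8.46 and 7.83 in VBA- cortisol libraries 1 to 4. It and FKBP5 were thus higher in libraries 1 and 2, while the rising genes were lower there. The split was shared with the sums of synapse and neuron markers above and with muscle markers, at 18.71, 18.68, 19.31 and 19.22. What divides the pairs was not tested.

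All 4 VBA- cortisol libraries lay below all 4 VBA+ cortisol libraries in 4 of the 19 rising genes, HSP90AA1, FAM13B, ULK2 and hif1al, beside 1.76% of all genes. All 4 lay above in 20 of the 37 falling genes, beside 2.41% of all genes. The VBA+ cortisol libraries are at the end of the order by the choice of genes, so 1 side of this comparison is not independent of the rule. Libraries 3 and 4 alone gave the same 4 and 20. In these genes the VBA- cortisol libraries closest to VBA+ cortisol were still outside its range.

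No member passed the test of either comparison that involves VBA- cortisol. In limma, cortisol against vehicle in VBA- larvae called 0% of all genes, with 0 members, 389 genes at an unadjusted p under 0.05, and 1 rising and 1 falling member among those. Genotype in cortisol also called 0% of all genes, with 1701 genes at an unadjusted p under 0.05, among them 4 rising and 27 falling members. The medians of that comparison were -0.54 over the rising and 0.75 over the falling genes, and adjusted p of the members ran from 0.324 to 0.71. Both comparisons use a group that the rule put at an end of the order, VBA- vehicle or VBA+ cortisol. Their member counts and medians are therefore not independent of the choice of genes, and nothing is read from them. FAM13B was lower in VBA- cortisol than in VBA+ cortisol by 0.75 ± 0.12 (SE), and ENSDARG00000068947 higher by 4.57 ± 0.72 (SE), both with an adjusted p of 0.324. The interaction of cortisol with genotype was called in 0.00461% of all genes and in 0 members, with 1138 genes at an unadjusted p under 0.05, among them 1 rising and 3 falling members, and the smallest adjusted p of a member was 0.726. It is therefore not shown for any of the 56 genes that the response to cortisol differed between VBA- and VBA+ larvae.

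As a description, the VBA- cortisol libraries were also taken in pairs, and the pairs differed. Against VBA- vehicle libraries of the same numbers, VBA- cortisol libraries 1 and 2 had a median difference of -0.13 over the rising genes, with 5 above and 14 below, and of 0.10 over the falling genes, with 20 above and 17 below. Libraries 3 and 4 had a median of 0.56 over the rising genes, with all 19 above, and of -0.38 over the falling genes, with 34 of 37 below. The rule put VBA- vehicle at the end of the order in every member, so these counts are not independent of the choice of genes. Over all 4 libraries, 47.4% of all genes had a VBA- cortisol mean above that of VBA- vehicle and 52.5% below. Such shares were not counted for each pair, so the member counts of a pair have no share of all genes beside them. Against the VBA+ vehicle mean, the median over all tested genes was 0.015, 0.015, -0.007 and 0.007 in VBA- cortisol libraries 1 to 4. In VBA- vehicle libraries 1 to 4 it was 0.001, 0.007, -0.009 and -0.013. In VBA- cortisol libraries 1 and 2 the medians of the genes thus stood near the VBA- vehicle level. In libraries 3 and 4 most genes differed from VBA- vehicle in the direction of the VBA+ groups. Of the 37 falling genes, 15 were still on the VBA- side of the VBA+ vehicle mean in libraries 3 and 4.

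Some calls depended on the model. The rule used genotype in vehicle and cortisol in VBA+ larvae to choose the genes, so nothing is read from member counts in either comparison. With replicate number as a block, genotype in vehicle called 0.899% of all genes and 10 members, in place of 1, namely cd9b, HSP90AA1, PAICS, klf2b, krt1-19e, tcnbb, anxa1d, si:ch73-54f23.2, anxa1c and cst14b.1. With that block the cortisol effect in VBA+ larvae called 0.0277% of all genes and 0 members, in place of 15. In this comparison same-numbered libraries did not deviate alike from their group means, with correlations from -0.127 to -0.0231. The data thus give no ground for pairing by number there, and losses of cortisol calls under the block are to be read with that limit. In 1 fit over all 16 libraries, genotype in cortisol called 10 genes, of which 3 were members, FAM13B (-0.75, adjusted p 0.0104), klf2b (1.33, adjusted p 0.0188) and si:dkey-31g6.6 (1.94, adjusted p 0.0188). On the 8 libraries alone, limma gave an adjusted p of 0.324 for FAM13B and 0.421 for klf2b. The larger fit shares 1 spread per gene among groups, and the median SD of all genes was 0.40 in VBA- cortisol and 0.21 in VBA+ vehicle. The rule put VBA+ cortisol at an end of the order, so nothing is read from these member calls. Of the list of 61 known GR target genes that were tested, 0 were among the 56, but 1 that had the rising order was left out by its identifier. With cortisol in VBA+ larvae 15 of these were called higher and 3 lower, and in VBA- vehicle 1 was called higher and 0 lower, with medians of 0.29 and -0.14. Of all genes, 3.6% were called higher and 4.63% lower with cortisol, and 0.171% higher in VBA- vehicle. With the replicate block 0 of the GR target genes were called with cortisol. Nor was any gene of the receptor, heat shock, immune, and purine and pteridine lists called with cortisol under the block (0 in each).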

How the data were processed

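RNA of 16 pools of whole larvae was sequenced. Per the methods and the submitters' processing notes, the authors trimmed reads with Trimmomatic, aligned them with STAR 2.6.1b to GRCz11, estimated counts with RSEM 1.3.0 and normalized them with EDASeq for GC content and by full quantiles. The deposited values are log2(normalized count + 0.1). The authors tested with DESeq2 1.24.0, for which these values are not suited. Here limma 3.58.1 in R 4.3.3 was used (eBayes with trend, Benjamini-Hochberg adjustment over 21686 of 22994 genes that average 5 or more normalized counts), on the 8 libraries of a comparison or on all 16 for the difference between genotypes. It was tested on simulated data. Counts behind the values are unknown, so precision is the spread between pools. Pools of a group came from 1 dish, and p-values measure only the spread between them.

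The genes, lists and tests were chosen with earlier results of these data known. Genes described with values are the 12 of each direction with the largest smaller step and those on a fixed list, 29 in all. Other genes are named as relatives of these or by a count. A summed level is log2 of the sum of normalized counts. Correlations, across genes, of same-numbered libraries' deviations from group means were 0.0967, 0.0918, 0.104 and 0.122 for genotype in vehicle, not all above the limit of 0.1, but 0.253, 0.212, 0.309 and 0.235 over genes with a mean of at least 75, and both fits are given. For cortisol in VBA+ larvae these correlations were -0.127, -0.0231, -0.0687 and -0.112, all below that limit. Over genes with a mean of at least 75 they were -0.344, -0.0938, -0.267 and -0.242. For cortisol in VBA- larvae the correlations over all tested genes were 0.194, 0.336, 0.0728 and 0.404. For genotype in cortisol they were -0.281, -0.279, -0.229 and -0.359. A gene name table gave symbols for 21794 IDs, many in the human form. Places of genes came from RefSeq (GRCz12tu) as neighbours only. Promoter motifs were not searched. Figures used matplotlib 3.10.9 (Python 3.11.15).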

Additional observations from a re-analysis of the deposited data

Results flagged for a closer look

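In 116 groups of 4 libraries of the 29 genes described with values, 5 had a library far from the other 3, and chance gives about 1 in 20 such groups. That rate is for values without ties. In the flagged groups of FAM13B and MT-ND4 the other 3 libraries shared the same value, so any different value would have been flagged. FAM13B was lowest in VBA+ vehicle 1, at 12.23, with the nearest other library at 12.37. MT-ND4 was highest in VBA+ cortisol 1, at 15.54, with the nearest at 14.84. SNAP25 was lowest in VBA- vehicle 3, at 11.06, with the nearest at 11.15. tcnbb was highest in VBA- vehicle 2, at 12.31, with the nearest at 11.80, and PAICS was highest in VBA+ vehicle 3, at 11.01, with the nearest at 10.46.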

How the results depend on the processing

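The number of genes in the order depends on single libraries. Leaving out 1 library gave 20 to 63 rising genes in place of 19 and 38 to 98 falling genes in place of 37, the most without VBA- vehicle 4 (63 and 88) and VBA+ cortisol 4 (53 and 98), since fewer libraries have to be in order. With ties allowed there were 42 and 75, with replicates 1 and 2 alone 1420 and 1416, and with 3 and 4 alone 424 and 364. Without both VBA- libraries numbered 1, an alternative chosen after seeing the data, there were 31 and 46. The VBA- cortisol mean lay on the VBA- side of VBA+ vehicle in 10 to 19 rising and 22 to 35 falling genes without 1 library, and in 2 and 15 with libraries 3 and 4 alone.

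Calls moved more than values. For genotype in vehicle, 51 genes and 1 of the 56 were called. The replicate block gave 195 and 10, no filter on low values 8 and 0, all 16 libraries in the fit 16 and 0, eBayes without trend 1 and 0, a term for replicates 1 and 2 against 3 and 4 (added after seeing the data) 363 and 14, and the fit without both VBA- libraries numbered 1 gave 0 of the 56. Leaving out 1 library gave 1 (without VBA+ vehicle 2 or 4) to 63 genes and 0 to 2 of the 56. For cortisol in VBA+ larvae, 1783 genes and 15 of the 56 were called. The replicate block gave 6 and 0, all 16 libraries 21 and 0, and eBayes without trend 619 and 9. Leaving out 1 library gave 414 (without VBA+ cortisol 2) to 2925 genes (without VBA+ cortisol 4) and 7 to 20 of the 56.

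For cortisol in VBA- larvae, with 0 genes called, all 16 libraries gave 5 and the term for replicate pairs 2. For genotype in cortisol, with 0 called, all 16 libraries gave 10 genes and 3 of the 56, the term for replicate pairs 1 gene, the fit without both libraries numbered 1 gave 2 genes and 1 of the 56, and leaving out 1 library gave 0 to 2 genes and 0 to 1 of the 56, si:dkey-31g6.6 without VBA- cortisol 1. The interaction, called in 1 gene, was called in 0 with the replicate block, pseudocount 5, no filter, or without both libraries numbered 1, and in 0 to 1 without 1 library. The rule put VBA- vehicle and VBA+ cortisol at the ends of the order, so nothing is read from the counts of the 56. The causes of these changes were not tested. No called value changed sign. For genotype in vehicle and cortisol in VBA+ larvae the choice of the genes fixes the sign of their differences. For cortisol in VBA- larvae it changed in 41 of 458 values computed, which include settings that cannot move the value. Depth is unknown, which limits what can be said of low counts such as those of klhdc8a.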
